A study of Mus musculus with 8 samples.

Results

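Autophagy genes were examined in bone marrow-derived macrophages (BMDMs) of mice with and without floxed alleles of the transcription factor gene Klf2. The genes were taken from the expression table by symbol, as every Atg gene with a number and 22 further genes of the pathway that were given by name. This gave 41 of the 23761 genes listed, and 40 of them were expressed highly enough to be tested. Small differences ran in both directions: 3 autophagy genes were higher in the libraries labelled K2KO (Atg12, Pik3r4 and Atg4c), 2 were lower (Atg101 and Map1lc3a), and no gene changed by more than 1 on the log2 scale. These 5 were 12.5% of the 40, beside 18.4% of all tested genes that met the same rule. After a correction for base composition and transcript length none of the 40 met it, beside 10% of all tested genes. The log2 fold changes were then 0.19 for Atg12, 0.22 for Pik3r4, 0.16 for Atg4c, -0.15 for Atg101 and -0.08 for Map1lc3a.

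Macroautophagy degrades cytoplasm, organelles and microbes by closing a membrane around them and fusing the resulting autophagosome with the lysosome. A kinase complex around ULK1 starts the process, a lipid kinase complex around VPS34 marks the membrane, ATG9 and ATG2 supply lipid, and a pair of ubiquitin-like conjugation reactions attach proteins of the ATG8 family (LC3 and GABARAP) to it. Cargo receptors such as SQSTM1 bind those ATG8 proteins. In macrophages the same machinery is known for the removal of bacteria and lipid droplets and for the handling of phagosomes.

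BMDMs came from 4 LysM mice, which carry Cre recombinase on both alleles of the lysozyme M gene (LysM Cre/Cre), and from 4 K2KO mice, which carry the same Cre and floxed Klf2 on both alleles (KLF2 flox/flox), all at 3 months of age. The labels of all 8 libraries also carry the mark of a vehicle, which both groups share and which is not described for this experiment. Marrow cells were grown in medium conditioned by L929 fibroblasts, and their total RNA was sequenced. The Cre is therefore shared by both groups, is active in the myeloid cells that express lysozyme M, and sits in the lysozyme M gene itself. The 8 libraries are called LysM0 to LysM3 and K2KO0 to K2KO3, where the number only names a column and no single mouse. The sample codes of the 2 genotypes come from separate runs of numbers whose meaning is not given in the sources used here, so a batch that follows genotype and the genotype itself cannot be told apart.

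Expression was given by the authors as FPKM, a measure of fragments scaled to transcript length and to the mapped fragments of each library. Levels of different genes are thus given per length, but comparing them is uncertain where near-identical copies of a gene can share its reads. Read counts were not used here, and the absolute depth behind a value is unknown. The FPKM summed to between 497253 and 551608 in the LysM libraries and to between 448235 and 501965 in the libraries labelled K2KO (exact two-sided permutation test, p = 0.0571). The depth of a library relative to LysM0, read from steps among the lowest FPKM, was 0.979, 1.08 and 1.25 in the other LysM libraries and 1.37, 1.43, 0.908 and 0.993 in K2KO0 to K2KO3 (exact two-sided permutation test, p = 0.486). Values were moved to log2(FPKM + 0.1), and genes with a mean of at least 1 FPKM were tested with limma. A gene was called when its Benjamini-Hochberg adjusted p over all 10920 tested genes was under 0.05 and its log2 fold change, K2KO minus LysM, exceeded 0.26 in size.

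Klf2 was checked first, as the gene targeted in these mice. It stood at 44.1, 52.9, 64.7 and 72.8 FPKM in LysM0 to LysM3 and at 45.5, 41.6, 59.2 and 59.3 FPKM in K2KO0 to K2KO3. The groups overlapped, and the log2 fold change of -0.18 (standard error, SE, of 0.17 from limma, adjusted p = 0.460) was not larger than the spread between libraries. Values summed over the gene cannot tell which exons were read, so they leave the loss of the floxed part unseen, and the libraries are called by their label below. The macrophage identity of the cultures was checked with 8 markers, whose FPKM summed to 3153 ± 46.0 (SD, n = 4) in LysM and 3064 ± 48.2 (SD, n = 4) in K2KO-labelled libraries. Cd68, a lysosomal membrane protein of macrophages, was the most abundant marker with a mean of 1807 FPKM, and none of the 8 was at 0. Of the 8 markers, Mertk was called higher (log2 fold change 0.36) and Lyz2, the gene that carries the Cre, was called lower (-0.49). In the 8 fits that left out 1 library, Mertk was called in 2 and Lyz2 in 4. After a correction for GC content and length, Mertk was at 0.28 (limma adjusted p = 0.0752) and not called, and Lyz2 was at -0.45 (limma adjusted p = 0.0486). The 6 neutrophil markers, led by S100a9, summed to 206 ± 48.8 FPKM (SD, n = 4) and 205 ± 49.7 FPKM (SD, n = 4), and Camp among them was called lower (-1.14). The other tested ones were not called, with S100a8 at 0.27, Mpo at 0.17, Elane at 0.47 and S100a9 at -0.07 on the log2 scale. Summed markers of B cells, T and NK cells, stroma, red cells and mast cells stayed under 3 FPKM in every library, and those of dendritic cells reached 3.34 FPKM in K2KO3. Their means were nonetheless higher in the libraries labelled K2KO, at 0.480 and 1.48 FPKM for stroma, 0.119 and 0.340 FPKM for T and NK cells, 0.952 and 1.40 FPKM for B cells, 0.574 and 0.852 FPKM for red cells, 0.250 and 0.497 FPKM for mast cells, and 1.36 and 2.23 FPKM for dendritic cells. The mast cell and progenitor gene Kit, with means of 0.123 and 0.333 FPKM, did not overlap between groups and was under the filter. The red cell gene Hbb-bt was listed at 0 in all 8 libraries. In bulk RNA, fewer cells of a type and less RNA per cell cannot be told apart, and the part of these markers in the changes given below was not tested.

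The autophagy genes spanned almost the whole range of expression. Gabarap was by far the most abundant, with a mean of 722 FPKM over the 8 libraries (percentile 99.2 among tested genes), followed by the cargo receptor gene Sqstm1 at 372 FPKM (percentile 98.2). At the other end, the tested genes Epg5 and Rb1cc1 had means of 2.01 and 2.42 FPKM, Atg4a-ps had 1.05 FPKM, and Atg9b fell under the filter with 0.643 FPKM. The FPKM of all 41 genes summed to between 1656 and 1744 in the LysM libraries and to between 1579 and 1749 in the libraries labelled K2KO. The ranges overlapped, with K2KO0 below every LysM library.

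**Figure D1:**
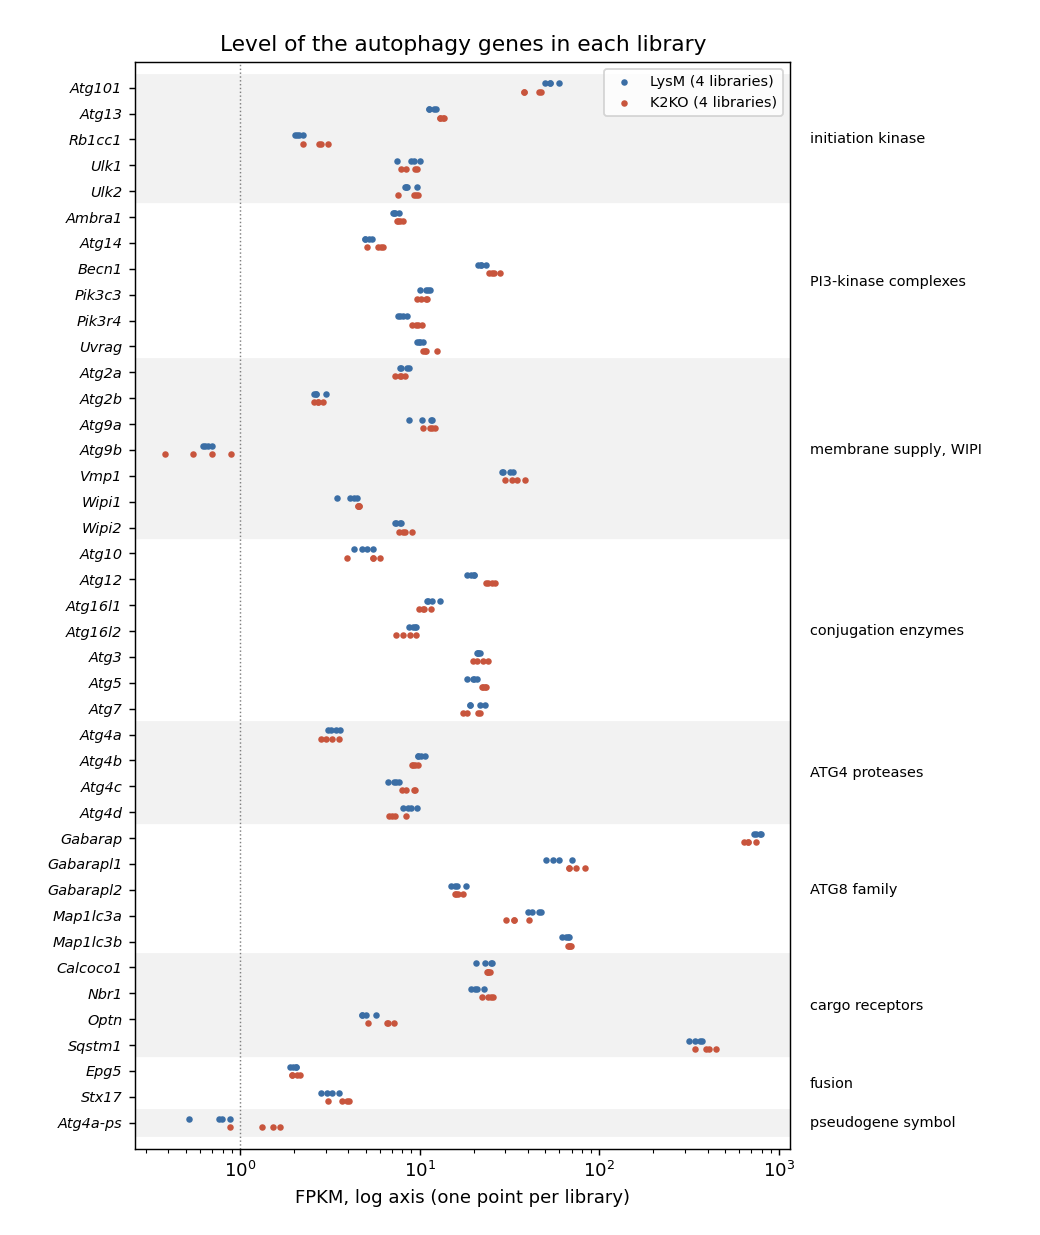
Level of each autophagy gene in FPKM on a log axis, with 1 point per library, LysM in blue and K2KO in red, grouped by role. Gabarap and Sqstm1 stand apart at the right, with means of 722 and 372 FPKM, and Atg9b is left of the dotted line at 1 FPKM that marks the filter.

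Of the 40 tested autophagy genes, 5 were called (12.5%), and 18.4% of all tested genes were. The 3 higher genes compare with 9.84% of all genes called higher, and the 2 lower genes with 8.61% called lower. The 4 libraries of one genotype lay wholly apart from the 4 of the other for 8 of the 40 genes (20%, against 23.1% of all tested genes), with 7 of the 8 higher in the libraries labelled K2KO (12.9% of all genes were apart in that direction). The fold changes of 28 genes lay above 0 and those of 12 below, their median was 0.08 on the log2 scale against 0.01 over all tested genes, and their median size was 0.14 against 0.17. Relative to the LysM means, the median autophagy gene stood at 0.06, 0.14, 0.10 and 0.02 on the log2 scale in K2KO0 to K2KO3, and the median of all tested genes at -0.02, 0.02, 0.05 and 0.01. K2KO3 was thus the library labelled K2KO that lay closest to LysM over these genes. For each of the 5 called genes it was also the K2KO library nearest to the LysM values. The number of called autophagy genes was 10 of 40 without K2KO3 and 8 of 40 without LysM0, beside 26% and 21.4% of all tested genes. It was 2 without LysM2 or K2KO0, beside 9.43% and 6.47% of all tested genes, and 1 without LysM1, LysM3, K2KO1 or K2KO2, beside 6.74%, 3.09%, 6.65% and 4.54%.

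**Figure D2:**
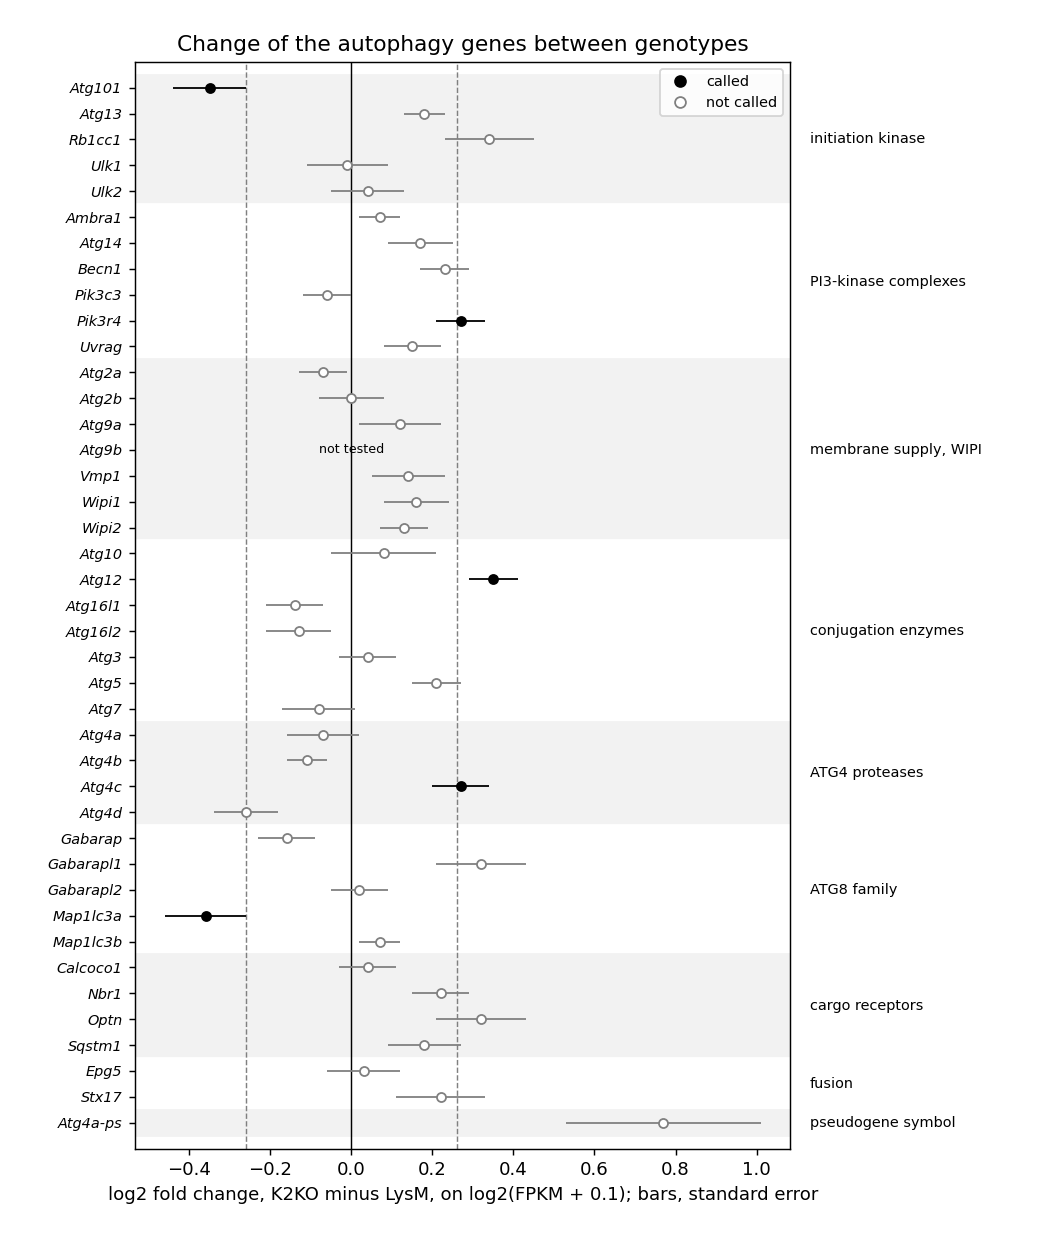
Log2 fold change of each tested autophagy gene, K2KO minus LysM, with its standard error, grouped by role. Dashed lines mark the fold limit of 0.26, filled points are the 5 called genes, and the remaining 35 genes, among them Atg4a-ps at 0.77, were not called.

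Promoter sequence was available for a share of the called genes and is shown here because Kruppel-like factors bind a CACCC core. Of the 41 genes, 33 matched a RefSeq promoter of mouse build GRCm38.p6 by symbol, with 38 start sites, and none was at hand for Atg12, Map1lc3a or Becn1. The 250 bases before each start site were searched on both strands. The letters CACCC were in 20 of the 38 promoters (52.6%) and in 52.0% of all 32851 promoters of that table. Among the called genes, Atg101 held 3 such matches, while Pik3r4 and Atg4c held none in the windows shown. Matches are in capitals, all lie on the strand of the gene, and a match is a description of letters and not of binding.
Atg101, chr15:101284051-101284300, plus strand: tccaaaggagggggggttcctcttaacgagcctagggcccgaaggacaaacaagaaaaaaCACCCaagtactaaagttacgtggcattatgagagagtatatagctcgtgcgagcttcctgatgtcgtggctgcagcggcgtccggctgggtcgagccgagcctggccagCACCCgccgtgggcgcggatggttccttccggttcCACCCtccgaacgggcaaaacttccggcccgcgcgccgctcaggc
Pik3r4, chr9:105642745-105642994, plus strand: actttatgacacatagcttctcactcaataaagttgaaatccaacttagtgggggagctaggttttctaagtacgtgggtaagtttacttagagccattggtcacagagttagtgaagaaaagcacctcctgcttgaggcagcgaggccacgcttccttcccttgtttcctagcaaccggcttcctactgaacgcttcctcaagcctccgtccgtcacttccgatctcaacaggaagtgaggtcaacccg
Atg4c, chr4:99193684-99193933, plus strand: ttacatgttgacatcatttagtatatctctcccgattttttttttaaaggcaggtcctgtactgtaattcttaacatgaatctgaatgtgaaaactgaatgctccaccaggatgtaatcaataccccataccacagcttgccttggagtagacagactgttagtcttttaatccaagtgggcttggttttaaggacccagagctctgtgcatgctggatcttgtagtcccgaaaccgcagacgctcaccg

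The E-box CACGTG, the palindrome that TFEB and related regulators of lysosomal and autophagy genes recognise, was in 3 of the 38 promoters (7.89%, against 6.02% of all promoters), those of Atg3, Atg5 and Atg7. The longer form TCACGTG was in 2 of them (5.26%, against 3.13%), Atg3 and Atg7, and each such match also holds the E-box. The start site used for Atg7 lies inside the gene as annotated, which runs from 114643097 to 114860614 on the plus strand of chromosome 6. Its matches are therefore not in the bases before the annotated start of the gene. The short windows below show the E-box in capitals.
Atg7, chr6:114670952-114670981, plus strand: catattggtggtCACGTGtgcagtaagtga
Atg5, chr10:44268313-44268338, plus strand: cggagcgcttgcCACGTGgtcttggt
Atg3, chr16:45158723-45158752, plus strand: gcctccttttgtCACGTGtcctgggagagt
Atg3, chr16:45158746-45158775, plus strand: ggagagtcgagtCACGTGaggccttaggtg
The log2 fold changes of these genes were 0.21 for Atg5, 0.04 for Atg3 and -0.08 for Atg7, none was called, and differences between them were not tested.

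In the initiation kinase complex, 1 of 5 genes was called lower and none higher, beside 8.61% and 9.84% of all tested genes. Atg101, which encodes the subunit that stabilises ATG13 in the ULK1 complex, lies on chromosome 15 from 101284272 to 101290945. Its level was 49.7, 53.4, 52.8 and 59.8 FPKM in LysM0 to LysM3 and 38.1, 37.9, 46.1 and 47.5 FPKM in K2KO0 to K2KO3. All 4 LysM libraries were above all 4 libraries labelled K2KO, with K2KO2 and K2KO3 close to the lowest LysM library. The mean fell by 21.3%, and the log2 fold change was -0.35 (SE of 0.09 from limma, adjusted p = 0.0330, lower in 4 of 4 libraries). This call held without LysM0 or K2KO3 and was lost without any 1 of the other 6 libraries, with an adjusted p of 0.0587 to 0.101.

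Ulk1, the catalytic subunit and best known member of the complex, was at 10.04, 9.27, 7.49 and 9.002 FPKM in the LysM libraries and at 9.42, 9.63, 8.44 and 7.89 FPKM in those labelled K2KO. The groups overlapped along most of their range (log2 fold change -0.01, standard error 0.10, adjusted p = 0.932). Its relative Ulk2 was also close to 0, with a log2 fold change of 0.04. Atg13, the regulatory subunit that links the kinase to its partners, was at 11.7 ± 0.527 FPKM (SD, n = 4) in LysM and 13.3 ± 0.351 FPKM (SD, n = 4) in K2KO-labelled libraries. Its libraries did not overlap and its adjusted p was 0.0453, but the log2 fold change of 0.18 was under the fold limit. Rb1cc1, which encodes the scaffold FIP200, had a larger log2 fold change of 0.34 and an adjusted p of 0.0541, and K2KO3 at 2.24 FPKM was level with the highest LysM library.

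In the class III PI3-kinase complexes, 1 of 6 genes was called higher and none lower, beside 9.84% and 8.61% of all tested genes. Pik3r4, which encodes the VPS15 subunit that carries the lipid kinase VPS34, lies on chromosome 9 from 105642978 to 105687657. It was at 8.47, 8.08, 7.59 and 7.80 FPKM in LysM0 to LysM3 and at 9.78, 10.3, 9.59 and 9.04 FPKM in K2KO0 to K2KO3. Every library labelled K2KO was above every LysM library, and K2KO1 was the highest. The mean was 21.1% higher (log2 fold change 0.27 with an SE of 0.06 from limma, adjusted p = 0.0203). The value sits just over the fold limit, and the call was lost without any 1 of the libraries other than LysM0 and K2KO3, with an adjusted p of 0.0511 to 0.0742.

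Becn1, which encodes the Beclin 1 subunit that regulates VPS34, was at 21.9, 22.04, 23.5 and 21.1 FPKM in the LysM libraries. The libraries labelled K2KO held 25.4, 25.9, 28.02 and 24.3 FPKM, all above the LysM range. Its log2 fold change of 0.23 (standard error 0.06, adjusted p = 0.0351) passed the p threshold and not the fold limit. Pik3c3, the VPS34 kinase itself, was at 10.04, 10.9, 11.1 and 11.5 FPKM in LysM and at 10.8, 9.71, 10.2 and 11.05 FPKM in the libraries labelled K2KO. These ranges overlapped (log2 fold change -0.06, standard error 0.06, adjusted p = 0.537). Atg14 and Uvrag, whose products direct the kinase to autophagosome formation and to endosomes, stood at 0.17 and 0.15 on the log2 scale, and Ambra1, a partner of Beclin 1, at 0.07. None of these 3 passed the p threshold (adjusted p 0.145, 0.148 and 0.338).

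Of the genes that bring membrane and lipid to the growing autophagosome, none of 6 tested was called by limma or by ordinary least squares (6.83% of all tested genes for the latter), and 0 had an unadjusted limma p under 0.05, beside 37.8% of all tested genes. Atg9a, the scramblase whose vesicles seed the membrane, was at 11.7, 11.5, 8.75 and 10.3 FPKM in LysM0 to LysM3 and at 11.8, 12.2, 11.4 and 10.4 FPKM in K2KO0 to K2KO3. The groups overlapped, with LysM2 the lowest of the 8 (log2 fold change 0.12, standard error 0.10, adjusted p = 0.370). Atg9b, its paralog, was listed at 0.383 to 0.889 FPKM and was not tested. The lipid transfer genes Atg2a and Atg2b stood at -0.07 and 0.00 on the log2 scale, and Vmp1, a scramblase of the endoplasmic reticulum, at 0.14. Wipi2, which recruits the conjugation machinery to the marked membrane, stood at 0.13. Wipi1 was at 3.47 to 4.49 FPKM in LysM and within 4.54 to 4.59 FPKM in the libraries labelled K2KO, so the groups did not overlap, yet the log2 fold change of 0.16 had an adjusted p of 0.189.

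Among the 7 conjugation genes, 1 was called higher and none lower, beside 9.84% and 8.61% of all tested genes. Atg12, the ubiquitin-like protein that is joined to ATG5, lies on chromosome 18 from 46730144 to 46741580. Its level was 20.1, 19.97, 19.3 and 18.4 FPKM in LysM0 to LysM3 and 24.1, 26.2, 25.4 and 23.3 FPKM in K2KO0 to K2KO3. The groups were well apart, since the lowest library labelled K2KO exceeded the highest LysM library. The mean was 27.3% higher (log2 fold change 0.35 with an SE of 0.06 from limma, adjusted p = 0.0111), which was the smallest adjusted p among the 40 genes. It was called in all 8 fits that left out 1 library, with a log2 fold change of 0.32 to 0.38.

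Atg5, the partner of ATG12, was at 18.4, 20.8, 19.9 and 19.96 FPKM in LysM and at 22.3, 23.3, 23.1 and 22.6 FPKM in the libraries labelled K2KO. Again all 4 were above the LysM range, but by less, and the log2 fold change of 0.21 (standard error 0.06, adjusted p = 0.0312) stayed under the fold limit. Atg16l1, which anchors the ATG12 and ATG5 conjugate to the membrane, was at 10.9, 11.7, 11.1 and 12.99 FPKM in LysM and at 10.5, 9.94, 11.5 and 10.6 FPKM in the libraries labelled K2KO. Its groups overlapped and its log2 fold change lay on the other side of 0 (-0.14, standard error 0.07, adjusted p = 0.195). Atg7, the E1-like enzyme that activates both conjugation systems, was at 21.8, 23.1, 19.1 and 19.1 FPKM in LysM and at 17.5, 21.8, 18.3 and 21.1 FPKM in the libraries labelled K2KO. It overlapped between groups (log2 fold change -0.08, standard error 0.09, adjusted p = 0.557). The E2-like enzymes Atg3 and Atg10 stood at 0.04 and 0.08 on the log2 scale, and Atg16l2, a relative of Atg16l1, at -0.13.

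**Figure D3:**
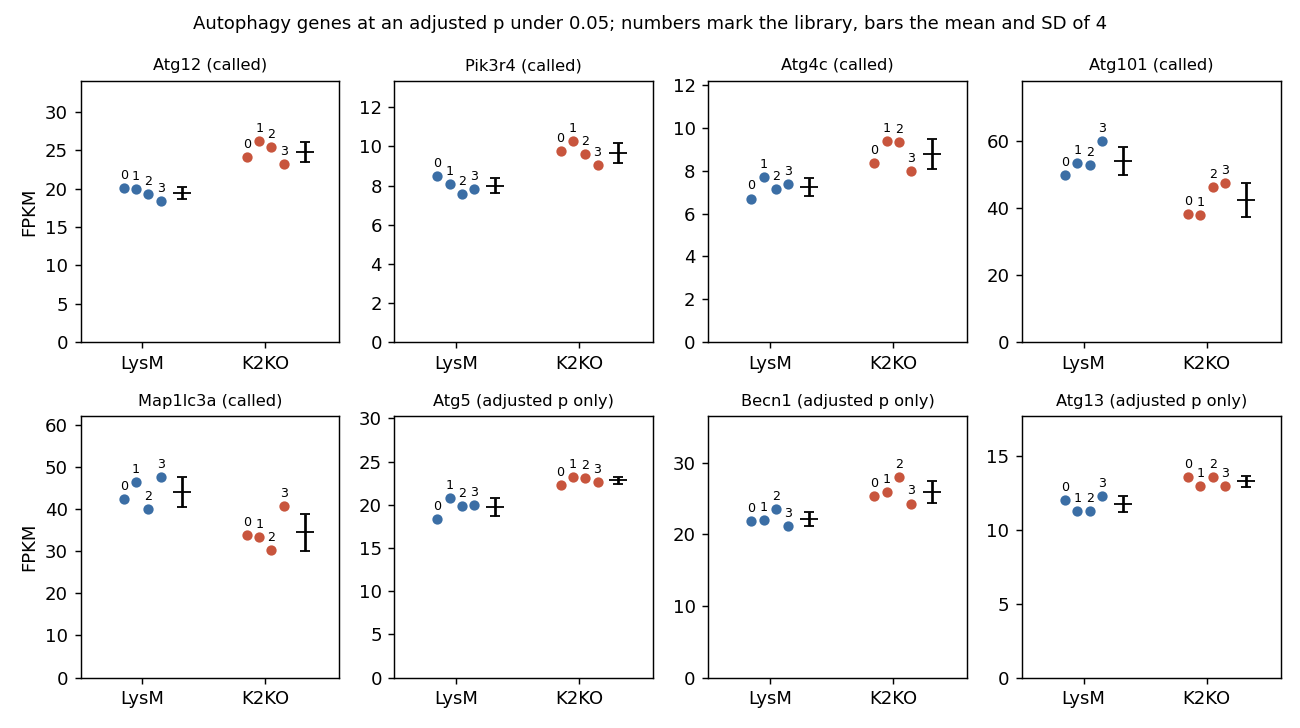
FPKM of the 8 autophagy genes at an adjusted p under 0.05, with 1 numbered point per library and the mean and SD of the 4 libraries of each genotype, on axes that start at 0. The genotypes do not overlap for any of these genes other than Map1lc3a, where K2KO3 at 40.6 FPKM is above LysM2 at 39.9 FPKM.

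Of the 4 genes for ATG4 proteases, which trim ATG8 proteins and release them from membranes, 1 was called higher. Over all tested genes 9.84% were called higher. Atg4c, on chromosome 4 from 99193934 to 99259787, was at 6.70, 7.71, 7.16 and 7.37 FPKM in LysM0 to LysM3 and at 8.36, 9.37, 9.34 and 8.002 FPKM in K2KO0 to K2KO3. All libraries labelled K2KO were higher, with K2KO3 only a little above LysM1. The mean was 21.1% higher (log2 fold change 0.27 with an SE of 0.07 from limma, adjusted p = 0.0325). Without any 1 of the libraries other than K2KO3 this call was lost (adjusted p 0.0586 to 0.0924). The other proteases lay below 0: Atg4b, the main protease of the family, at -0.11, Atg4a at -0.07 and Atg4d at -0.26 on the log2 scale. Atg4d came nearest to a call with an adjusted p of 0.0559, but it shares 1405 exonic bases with Kri1 on the opposite strand, and whether the counting used strand is not stated. The same limit holds for other genes, such as Becn1 (3104 bases with Cntd1), Sqstm1 (580 with Mrnip) and Atg2b (383 with Gskip). Atg9a shares 1832 bases with Gm29253 on its own strand (mean 1.72 FPKM). The part of these overlaps in the values was not tested. Atg4a-ps, listed as a coding gene with a pseudogene symbol, is 99.3% identical to Atg4a over 2115 bases. Its range was 0.522 to 0.882 FPKM in LysM and 0.879 to 1.67 FPKM in K2KO-labelled libraries. Its log2 fold change of 0.77 was the largest of all 40 genes but had a standard error of 0.24 and an adjusted p of 0.0507. It was called higher in 8 of 13 other settings and in 1 of the 8 fits that left out 1 library, where Atg101 was called in 8 of the 13 and Atg4c and Map1lc3a in 7. Because reads could be split between the copies in either way, both are uncertain, and their summed FPKM overlapped between groups (4.07 ± 0.339 and 4.52 ± 0.323, SD, n = 4).

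In the ATG8 family, whose products coat the autophagosome and bind cargo receptors, 1 of 5 genes was called lower and none higher. Over all tested genes 8.61% were called lower and 9.84% higher. Map1lc3a, on chromosome 2 from 155276297 to 155278073, was at 42.3, 46.3, 39.9 and 47.6 FPKM in LysM0 to LysM3 and at 33.7, 33.4, 30.2 and 40.6 FPKM in K2KO0 to K2KO3. Of the libraries labelled K2KO, 3 were below all LysM libraries and K2KO3 was within the LysM range. The mean fell by 21.7%, with a log2 fold change of -0.36 (SE of 0.10 from limma, adjusted p = 0.0334). A single-gene comparison did not reach the threshold (exact two-sided permutation test, p = 0.0571, where 4 against 4 libraries allow 0.0286 at best). The call held without LysM0, LysM2 or K2KO3 and was lost without any 1 of the other 5 libraries (adjusted p 0.0825 to 0.105).

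Map1lc3b, the LC3 gene most used as a marker of autophagosomes, was at 67.6, 65.0, 61.9 and 66.5 FPKM in LysM and at 67.4, 67.0, 69.7 and 68.9 FPKM in the libraries labelled K2KO. The groups overlapped only through LysM0 (log2 fold change 0.07, standard error 0.05, adjusted p = 0.383). A processed pseudogene on chromosome 14, Gm6055, is 99.6% identical to Map1lc3b over 282 bases. This copy, which was looked up after its values were seen, was listed at 37.1 ± 4.39 FPKM (SD, n = 4) in LysM and 50.8 ± 5.72 FPKM (SD, n = 4) in K2KO-labelled ones, and it was called higher (log2 fold change 0.45, limma adjusted p = 0.0211). The FPKM of Map1lc3b and its 3 listed copies summed to 107 ± 8.36 and 124 ± 6.74 (SD, n = 4), without overlap. FPKM is scaled to length, and the stretch shared with Gm6055 is 282 bases of a Map1lc3b transcript of 4138 bases. The sum is therefore not a level of Map1lc3b. How reads of that stretch were assigned is not known, and their part in the Map1lc3b value was not tested. Gabarapl2 has copies of the same kind. Of these, Gm3724 was listed at a mean of 48.2 FPKM against 16.3 FPKM for Gabarapl2 itself, whose log2 fold change was 0.02.

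Gabarap was at 730, 789, 745 and 780 FPKM in LysM0 to LysM3 and at 637, 674, 674 and 747 FPKM in K2KO0 to K2KO3. Its groups overlapped only through K2KO3 and the lower LysM libraries (log2 fold change -0.16, standard error 0.07, adjusted p = 0.133). Gabarapl1 stood at 0.32 with an adjusted p of 0.0629, and LysM0 at 70.1 FPKM was inside the K2KO range of 67.5 to 83.7 FPKM. As shares of the summed FPKM of the 5 genes, Gabarap made up 80.5% ± 1.10 (SD, n = 4) in LysM and 78.0% ± 1.02 (SD, n = 4) in the libraries labelled K2KO. The share of Map1lc3a was 4.34% to 4.96% in LysM and 3.49% to 4.32% in the libraries labelled K2KO, and that of Map1lc3b was 6.67% to 7.31% and 7.34% to 8.20%. These 2 shares did not overlap between genotypes and lay in opposite directions. That of Gabarapl1 had means of 6.23% and 8.40% and overlapped. The assignment of reads over the stretch that Map1lc3b shares with its copies also enters its share, and that part was not tested. The same limit holds for Gabarapl2, whose copy Gm3724 was listed at a mean of 48.2 FPKM, and through the sum for all 5 shares. After the GC and length correction Map1lc3a and Gabarap, which holds most of the sum, stood close together at -0.08 and -0.07 on the log2 scale. A share is not altered by a scaling of the whole library, and the 5 shares of a library add up to 100 by construction.

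**Figure D4:**
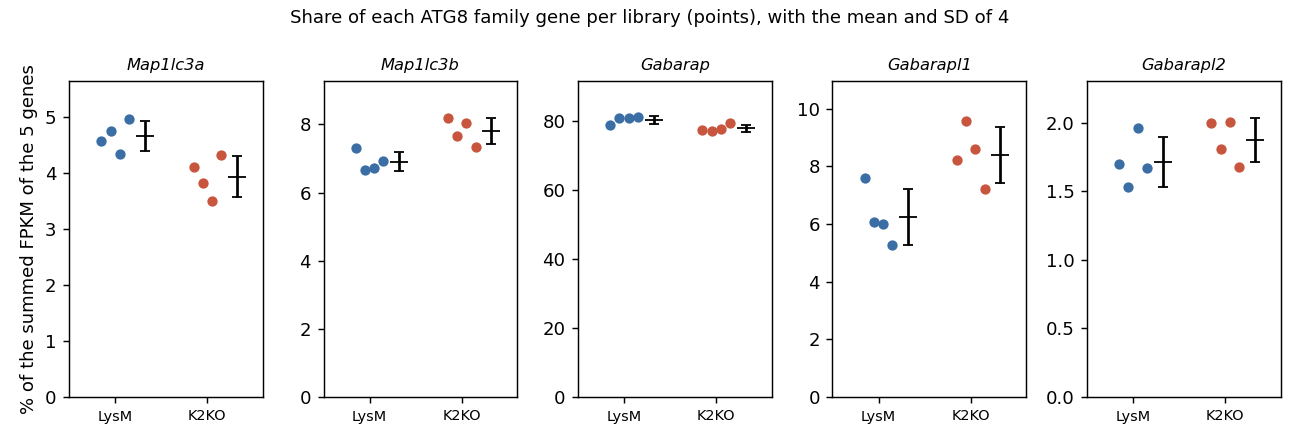
Share of each ATG8 family gene in the summed FPKM of the 5 genes, in percent, with 1 point per library and the mean and SD of the 4 libraries of each genotype, on axes that start at 0. Gabarap holds most of the sum, with a mean of 80.5% in LysM and 78.0% in K2KO, the share of Map1lc3a is lower in every library labelled K2KO, and that of Map1lc3b is higher.

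None of the 4 cargo receptor genes was called by limma or by ordinary least squares, and 2 had an unadjusted limma p under 0.05, again beside 37.8% of all tested genes. Sqstm1, whose product p62 delivers ubiquitinated cargo and is itself degraded by autophagy, was at 374, 362, 339 and 316 FPKM in LysM and at 340, 447, 406 and 391 FPKM in the libraries labelled K2KO. K2KO0 lay inside the LysM range and the other 3 above it (log2 fold change 0.18, standard error 0.09, adjusted p = 0.177). Optn, a receptor for bacteria and mitochondria, stood at 0.32 (adjusted p = 0.0633), Nbr1, a relative of Sqstm1, at 0.22 (adjusted p = 0.0554) and Calcoco1, a receptor for the endoplasmic reticulum, at 0.04 on the log2 scale. All 4 were thus above 0, and all 4 overlapped between genotypes. For fusion with the lysosome, Stx17, the syntaxin of the finished autophagosome, was at 3.58, 3.26, 3.04 and 2.81 FPKM in LysM and at 3.96, 4.06, 3.70 and 3.11 FPKM in the libraries labelled K2KO. Only K2KO3 was within the LysM range (log2 fold change 0.22, standard error 0.11, adjusted p = 0.169). The tethering factor gene Epg5 stood at 0.03, and neither fusion gene was called or had an unadjusted p under 0.05.

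Further genes of the pathway were taken from a list of 54, of which 53 were tested. Of these, 9 were called (17.0%, beside the 18.4% of all tested genes), 5 higher and 4 lower, and their median log2 fold change was 0.09. Among 19 other core and fusion factors, Nrbf2 and Sh3glb1 were higher and Wdr45 and Vamp8 lower. Nrbf2, a subunit of the VPS34 complex, was at 7.54, 8.56, 8.13 and 7.23 FPKM in LysM and at 9.88, 9.34, 10.8 and 8.60 FPKM in the libraries labelled K2KO. All of the latter were higher, K2KO3 barely so (log2 fold change 0.29, limma adjusted p = 0.0393). Sh3glb1, a membrane-bending partner of Beclin 1, was at 54.7, 54.8, 52.2 and 55.7 FPKM and at 64.3, 70.5, 66.4 and 62.7 FPKM, with a wide gap between the groups (log2 fold change 0.28, limma adjusted p = 0.0159). Wdr45, a relative of the WIPI genes, was at 23.9, 26.6, 30.0 and 28.5 FPKM in LysM and at 22.1, 18.5, 22.4 and 21.4 FPKM in the libraries labelled K2KO. Here all LysM libraries were the higher ones (log2 fold change -0.36, limma adjusted p = 0.0245). Vamp8, the lysosomal SNARE that pairs with STX17, was at 253, 285, 290 and 293 FPKM and at 201, 209, 228 and 256 FPKM, where K2KO3 overlapped LysM0 (log2 fold change -0.33, limma adjusted p = 0.0329).

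Among 15 other receptors and mitophagy genes, Ncoa4 was called higher and Pink1 lower. Ncoa4, the receptor that delivers ferritin, was at 4.38, 3.38, 3.07 and 2.80 FPKM in LysM and at 6.75, 8.91, 6.54 and 3.52 FPKM in the libraries labelled K2KO. Only K2KO3 was inside the LysM range, and the log2 fold change of 0.84 (limma adjusted p = 0.0453) was the largest among the called genes of the pathway. Pink1, the kinase that marks damaged mitochondria, was at 64.0, 63.5, 72.9 and 68.0 FPKM in LysM and at 53.0, 51.3, 55.5 and 52.0 FPKM in the libraries labelled K2KO. The groups were well apart (log2 fold change -0.34, limma adjusted p = 0.0129), and this call held without each of the 8 libraries in turn. It ended after the GC and length correction, where the log2 fold change was -0.19 and the adjusted p 0.132, the highest over 21 alternatives (lowest 0.00943).

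Among 20 genes of nutrient and transcription control, Rheb and Prkaa1 were called higher and Prkag2 lower. Rheb, the small GTPase that activates mTORC1, was at 27.3, 24.3, 23.5 and 21.1 FPKM in LysM and at 28.7, 36.5, 32.4 and 28.8 FPKM in the libraries labelled K2KO. The lowest of the latter was just above LysM0 (log2 fold change 0.39, limma adjusted p = 0.0290). Prkaa1, a catalytic subunit of the energy sensor AMPK, was at 7.81, 8.24, 7.89 and 7.46 FPKM and at 10.3, 10.4, 10.1 and 8.95 FPKM, without overlap (log2 fold change 0.33, limma adjusted p = 0.0141). Prkag2, a regulatory subunit of the same kinase, was at 8.05, 9.99, 8.80 and 8.95 FPKM in LysM and at 6.60, 7.34, 7.98 and 7.21 FPKM in the libraries labelled K2KO, all of them lower (log2 fold change -0.29, limma adjusted p = 0.0364). The transcription factor genes Tfeb and Tfe3, which switch on lysosomal genes, stood at -0.18 (adjusted p = 0.160) and -0.22 (adjusted p = 0.0274), and neither was called. After the GC and length correction Tfe3 was called lower (-0.28), in 2 of 21 alternatives, both with that correction. Of the 9 called genes, the calls of Nrbf2, Wdr45, Vamp8, Ncoa4, Rheb and Prkag2 were lost without any 1 of at least 6 libraries (adjusted p 0.0523 to 0.142). Sh3glb1 lost its call without K2KO1 or K2KO2 (adjusted p 0.0414 and 0.0509, the first at a fold change of 0.25), and Prkaa1 without LysM3 or K2KO2 (adjusted p 0.0601 and 0.0506). With the GC and length correction Nrbf2, Vamp8 and Prkag2 were still called, together with Tfe3, and the calls of the other 6 ended. Sh3glb1 was then at 0.08 on the log2 scale (adjusted p 0.319, over 21 alternatives 0.00789 to 0.319) and Prkaa1 at 0.11 (adjusted p 0.160, over 21 alternatives 0.00485 to 0.179). Wdr45 stood at -0.25, Ncoa4 at 0.70 and Rheb at 0.27.

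The fold changes of the autophagy genes moved with the base composition of their transcripts. Over the 40 tested genes, the log2 fold change and the GC content of the longest transcript, which ran from 39.1% to 63.1%, had a Spearman's rho of -0.37 and a Pearson's r of -0.46. Over 10899 tested genes rho was -0.40. These are correlations across genes of the same 8 libraries, and genes are not independent replicates. The 2 genes called lower, Atg101 and Map1lc3a, had GC contents of 58.0% and 63.1%, while Atg12 and Atg4c, called higher, had 44.3% and 44.0%. Pik3r4 lay between them at 51.8%. After each library was corrected for its trend in GC content and length, rho over the 40 genes was 0.02 and their median absolute log2 fold change was 0.11.

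Under that correction none of the 40 genes was called with limma, against 10% of all tested genes, and 4 of the 40 (beside 12.4% of all tested genes) had an adjusted p under 0.05 with fold changes under the limit. At an unadjusted p under 0.05 there were 15 of the 40 (37.5%, beside 32.1% of all genes), where 14 were counted before the correction (35%, beside 37.8% of all genes). The 5 called genes kept their direction, at 0.19 for Atg12, 0.22 for Pik3r4, 0.16 for Atg4c, -0.15 for Atg101 and -0.08 for Map1lc3a on the log2 scale. Atg12 and Pik3r4 were still at an adjusted p of 0.0333 and 0.0299, where the range over 21 alternatives was 0.00519 to 0.0625 for Atg12 and 0.00999 to 0.0742 for Pik3r4. For Atg101 and Map1lc3a the highest adjusted p over the same alternatives were 0.141 and 0.341. Gabarapl1 stood at 0.41 and Optn at 0.34 after the correction (adjusted p 0.0650 and 0.0663), so these were not smaller than before. Others were smaller. Rb1cc1 went from 0.34 to 0.08, Becn1 from 0.23 to 0.10 and Stx17 from 0.22 to 0.03 (limma adjusted p 0.518, 0.170 and 0.859 after the correction). What sets the relation with base composition was not tested.

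**Figure D5:**
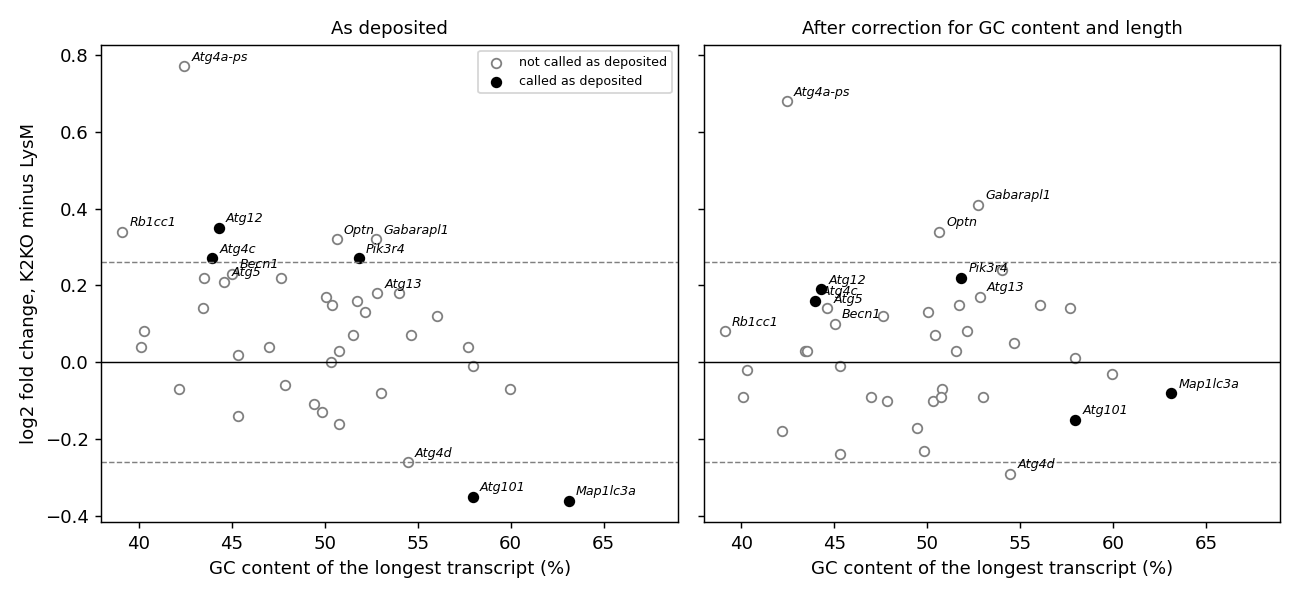
Log2 fold change of the 40 tested autophagy genes, K2KO minus LysM, against the GC content of the longest transcript in percent, as deposited (left) and after correction for GC content and length (right). Filled points are the 5 genes called as deposited and dashed lines mark the fold limit of 0.26, and the slope seen on the left (Spearman's rho -0.37) is gone on the right (0.02).

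The scale of the libraries also entered the direction of the calls. When every library was rescaled to the same summed FPKM, the median of all tested genes moved from 0.01 to 0.18 on the log2 scale, and 89.0% of all calls were higher, where 53.3% were higher as deposited. Under this rescaling 16 of the 40 autophagy genes were called, beside 28.9% of all tested genes, all 16 higher and none lower, among them Becn1, Atg5, Atg13, Sqstm1 and Gabarapl1. Atg101 and Map1lc3a were then at -0.18 and -0.19, which was below 0 and below the moved median, but neither was called. With upper-quartile scaling 8 autophagy genes were called higher and 2 lower, beside 19.1% of all tested genes in either direction, and 64.1% of all calls were higher.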

How the data were processed

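Per the labels, 4 LysM and 4 K2KO cultures of BMDMs from mice at 3 months of age were sequenced, and the methods state 4 mice per group, so the spread between libraries is that between mice. The authors deposited FPKM per gene and library, with no pooling, and read counts were not used here. Their methods name a stranded total RNA kit, TopHat2 on mm10 and Cufflinks, while the submitters' processing notes list STAR, Cufflinks and Cuffdiff, and the versions are not given in the sources used here. The labels and the methods name different RNA isolation kits, and the labels call the libraries vehicle-treated. Columns were mapped to a genotype and not to a mouse, and 0 columns were left unmapped.

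FPKM were compared as log2(FPKM + 0.1) for genes with a mean of at least 1 FPKM, by limma 3.58.1 (eBayes with an intensity trend, no covariate) in R 4.3.3, after tests on simulated data. The pseudocount makes the fold change of a low gene smaller than its ratio of FPKM. The fold limit of 0.26 is that of the study's methods. Single values were compared by exact permutation over 35 splits. Gapdh was listed at 0 to 0.4999 FPKM while Actb was at 1962 to 2949 FPKM, so low values were not read as absence.

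Of 23761 listed genes, 23645 matched GENCODE M21 (GRCm38) by identifier for position, length and GC content. Retreg1 is listed as Fam134b, and 1 gene of the pathway list is counted but not reported here by itself. Copies were sought with blastn 2.17.0 (at least 95% identity over at least 200 bases). Named in full were the called genes and the best known gene of each role. The members, lists and tests were chosen with earlier results of these data known. Alternatives were other pseudocounts, filters and scalings, no intensity trend, ordinary least squares, other call limits, a replicate block, a GC and length correction (local regression, span 0.3), each library left out, and protein-coding genes only, which was chosen after seeing the data.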

Additional observations from a re-analysis of the deposited data

Results flagged for a closer look

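Ulk2, the relative of Ulk1, was at 9.71 FPKM in LysM2, above the other 3 LysM libraries at 8.28 to 8.49 FPKM, and the gap made up 0.855 of the range of the group. It was marked because 1 sample stood far from the others of its group (critical value 0.829 for 4 samples). Chance marks about 1 in 20 groups, or 4.2 of the 84 groups examined, and 1 was marked. The libraries labelled K2KO spanned 7.56 to 9.75 FPKM, so the value lay inside their range.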

How the results depend on the processing

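No called autophagy gene changed sign in any of 21 refitted alternatives, but the number of calls moved. Against 5 called autophagy genes (3 higher, 2 lower), 9 other pathway genes and 2014 of all tested genes, the counts in this order were 2 (2, 0), 4 and 1090 without a filter, 16 (16, 0), 18 and 3160 after rescaling to a common sum, and 10 (8, 2), 12 and 2083 with upper-quartile scaling. They were 2 (2, 0), 3 and 746 with ordinary least squares, 0 (0, 0), 4 and 1095 with the GC and length correction, 8 (6, 2), 15 and 2283 with no fold limit, and 0 (0, 0), 0 and 110 at an absolute log2 fold change over 1, while 4126 genes had an unadjusted p under 0.05. Limma without an intensity trend gave 7 (5, 2), 8 and 1846 in the same order. The restriction to protein-coding genes gave 7 (5, 2), 10 and 1946, the last of 9704 tested genes. Leaving out 1 library gave 1 to 10 called autophagy genes (1 to 7 higher, 0 to 3 lower), 1 to 12 other pathway genes and 337 to 2837 of all genes. With the count of all called genes in parentheses, it was 8 (2332) without LysM0, 1 (736) without LysM1, 2 (1030) without LysM2, 1 (337) without LysM3, 2 (706) without K2KO0, 1 (726) without K2KO1, 1 (496) without K2KO2 and 10 (2837) without K2KO3. Atg12 was called in all 8. The log2 fold change of Klf2 ranged from -0.31 to 0.04 and was never called.

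No pairing of the libraries by the numbers in the column names was seen: deviations of libraries with the same number correlated at -0.07, 0.02, 0.07 and -0.06. With so few libraries per group these values cannot exclude a pairing. With the replicate block 6 autophagy genes were called (4 higher, 2 lower), including the same 5, with 9 other pathway genes and 2057 of all genes. The replicate block with the GC and length correction gave 0 (0, 0), 4 and 864. Among uncalled autophagy genes, 16 changed sign in at least 1 setting, in 41 of 840 gene and setting pairs, none with a log2 fold change over 0.16 in size, and 15 were called in some alternative alone. Quantile normalization gave 5 calls, of which 2 were among the 5, beside 1534 of all tested genes. The absolute depth of the libraries is unknown, so no counting error or detection limit could be given for low genes such as Atg9b, Rb1cc1 and Epg5.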
